A study of Mus musculus with 8 samples.

Results

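The genes described here are 32 mouse genes of fatty acid oxidation and of the response to the nuclear receptor PPAR alpha, measured by RNA sequencing in the jejunal mucosa of FFA2 fl/fl control mice and of mice lacking the free fatty acid receptor FFA2 in adipocytes (Adipoq-F2-KO). They were chosen by name from the known enzymes of mitochondrial and peroxisomal beta-oxidation, the carriers that feed them and well-known PPAR alpha targets, a rule that used no measured value, although earlier results of these data were known when the set was drawn up. All 32 symbols were matched among 56980 gene identifiers, and all 32 passed the filter on low counts, at which 15986 genes were tested. The comparison addressed whether removal of FFA2 from adipocytes was accompanied by a difference in the oxidative programme of the jejunal mucosa.

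Beta-oxidation shortens a fatty acid by repeated rounds of dehydrogenation, hydration, a further dehydrogenation and thiolysis. Long-chain fatty acids enter mitochondria as carnitine esters, and the electrons taken from them pass through the electron transfer flavoprotein to the respiratory chain, whereas peroxisomes shorten very long and branched chains and release their products as carnitine esters or free acids. PPAR alpha is activated by fatty acids and switches on many of these genes, and in the small intestine, where enterocytes take up dietary fat, several of its targets respond to a fat-rich diet.

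Both groups were male littermates of the same cross, carried floxed FFA2 alleles and were housed together, and the Adipoq-F2-KO mice also carried the Adiponectin-Cre transgene, which is active in adipocytes and not designed to delete the receptor in the intestine. From 12 weeks of age all mice received a Western diet with 10% fructooligosaccharides, a fermentable fibre, for 2 weeks. The characteristics give the housing as thermoneutral, while the growth protocol gives ambient temperature before the diet. Each group had 4 libraries of scraped jejunal mucosa, and since the labels do not say whether a library came from 1 animal, p-values measure the spread between libraries.

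Total counts per library ran from 6007654 to 21712776, and 3 libraries, floxed 3 and Adipoq-F2-KO 3 and 4, held fewer than 10000000. These 3 libraries also stood apart in content. The bile acid binding protein Fabp6, which defines the ileum, had normalized counts of 140 to 942 in them and 0.774 to 3.95 in the other 5, and the adipocyte hormone gene Adipoq had 22.6 to 123 against 0 to 1.86. The 13 mitochondrially encoded genes summed to 791053 to 895144 in them and to 392512 to 759431 in the other 5. The summed 10 smooth muscle markers ranged from 3768 to 30426.5 in floxed libraries, highest in floxed 3, and from 4149 to 12587 in Adipoq-F2-KO libraries. The summed 9 adipocyte markers ranged from 1623 to 2654 in floxed and from 1537 to 2215 in Adipoq-F2-KO libraries. Lipe made up most of that sum, with 1481 to 1777 in the 3 shallow libraries and 1493 to 1849 in the other 5. Each of the other adipocyte markers was higher in all 3 shallow libraries than in any other, Fabp4 at 94 to 243 against 0.774 to 12.65. The 4 markers of distal ileum and colon, of which Car1 was at 0 in all 8 libraries, summed to 32.1 to 855 in floxed and 34.7 to 1359 in Adipoq-F2-KO libraries. The 10 leukocyte markers summed to 4069 to 14201 in floxed and 11340 to 18789 in Adipoq-F2-KO libraries. Cd74 was the largest part of that sum, at 7723 to 12193 in the 3 shallow libraries and 2123 to 15686 in the other 5. The T cell marker Cd3e, 1 of the 10, had 128 to 201 and 111 to 183. The 8 crypt markers summed to 2596 to 3850 in floxed and 3099 to 3964 in Adipoq-F2-KO libraries. Of the tested markers, all 10 of smooth muscle (median log2 fold change −0.85), 4 of 5 of adipocytes, 12 of 15 of villus enterocytes (median −0.034), 3 of 7 of crypts and 2 of 10 of leukocytes (median 0.39) had estimates below 0, and 2 of crypts (Mki67 and Top2a) and 1 of leukocytes (Lyz2) were higher at an unadjusted p below 0.05. The 15 villus enterocyte markers were high in all 8 libraries, with sums from 933728 to 1036616, so the tissue matched its label in that respect. Because 1 of the 3 libraries was floxed and 2 were Adipoq-F2-KO, results are also given for the 5 libraries with at least 10000000 counts (3 floxed, 2 Adipoq-F2-KO). A fit with the smooth muscle score as a term was also made, and the part of depth and of other tissue content in any result was not tested.

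Promoter sequences are shown for 3 of the genes. Cpt2 and Pex11a are shown because they had the smallest p-values of the set, and Etfa because its window held the closest match to a PPAR response element together with Echs1. Each sequence is the 250 bases before the RefSeq transcription start in GRCm38.p6, written 5′ to 3′ on the strand of the gene, and capitals mark a match to the direct repeat AGGTCANAGGTCA, on either strand, with at most 2 mismatches among its 12 fixed letters.
Cpt2 (chr4:107923590-107923839, minus strand): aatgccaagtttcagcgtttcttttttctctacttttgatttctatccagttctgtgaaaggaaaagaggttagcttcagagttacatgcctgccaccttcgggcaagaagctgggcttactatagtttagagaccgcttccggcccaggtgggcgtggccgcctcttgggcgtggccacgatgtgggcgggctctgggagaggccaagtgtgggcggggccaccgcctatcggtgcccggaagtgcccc
Pex11a (chr7:79743132-79743381, minus strand): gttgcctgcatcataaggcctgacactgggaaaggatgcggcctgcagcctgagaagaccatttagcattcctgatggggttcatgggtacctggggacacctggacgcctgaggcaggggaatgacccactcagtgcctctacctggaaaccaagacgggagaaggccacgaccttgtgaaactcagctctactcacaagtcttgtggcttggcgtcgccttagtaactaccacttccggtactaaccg
Etfa (chr9:55512244-55512493, minus strand): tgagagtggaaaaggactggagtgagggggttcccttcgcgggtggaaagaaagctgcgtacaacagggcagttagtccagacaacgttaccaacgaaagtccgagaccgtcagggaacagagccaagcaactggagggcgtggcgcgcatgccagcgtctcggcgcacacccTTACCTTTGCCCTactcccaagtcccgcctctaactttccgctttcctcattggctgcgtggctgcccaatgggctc
The Cpt2 and Pex11a windows held no such match, their closest stretch having 5 mismatches. The match in Etfa lay on the opposite strand, 77 bases before the start. Echs1 had a match with 2 mismatches, AGGTCACGGGTCC, which began 83 bases before its start.

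Windows were found for 26 of the 32 genes, and Cyp4a10, Decr1, Acaa2, Angptl4, Hsd17b4 and Crat had none. Echs1 and Etfa, 2 of the 26 (7.69%), held a match with at most 2 mismatches, against 3.72% of the 27025 genes with a window. At most 3 mismatches were reached by 6 of the 26 (23.1%), against 23.7% of all genes. The core AGGTCA, or its reverse complement TGACCT, stood in 4 of the 26 windows (15.4%) and in 15.8% of all windows. A match in this window is a description of its letters and was not linked to binding by any measurement here.

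No gene of the set differed between the genotypes at an adjusted p below 0.05 (DESeq2, Benjamini-Hochberg over all tested genes, adjusted p = 0.9998 for each of the 32), where 6 of all 15986 tested genes (0.0375%) did. At an unadjusted p below 0.05 there were 3 of the 32, or 9.38%, and all 3 were lower in Adipoq-F2-KO: Cpt2, Etfb and Pex11a. Among all tested genes 485 (3.03%) passed that threshold, 221 of them lower (1.38%) and 264 higher (1.65%). edgeR's quasi-likelihood test gave an adjusted p below 0.05 for none of the 32 either, and an unadjusted p below 0.05 for the same 3 genes. In 2 of the 32 (6.25%), Cpt2 and Etfb, all 4 Adipoq-F2-KO libraries lay below all 4 floxed libraries, which was the case in 1.02% of all tested genes. In none of the 32 did they lie above, which was the case in 1.1%. The estimated fold change was below 0 on the log2 scale for 23 of the 32 genes and above 0 for 9, with a median of −0.081 (all tested genes −0.007) and a range from −0.44 to 0.16. These counts rested on single libraries. Without floxed 1 the median was 0.045 and 12 estimates were below 0, and without floxed 4 only Etfb had an unadjusted p below 0.05, where 0.838% of all tested genes were lower at that threshold. Without floxed 3 there were 5 such genes, all lower (Cpt2, Crat, Hadhb, Pex11a and Pdk4), but the number among all tested genes also went from 485 to 1302, with 3.77% lower. In bulk mucosa, fewer cells of a type and less RNA per cell cannot be told apart.

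**Figure D1:**
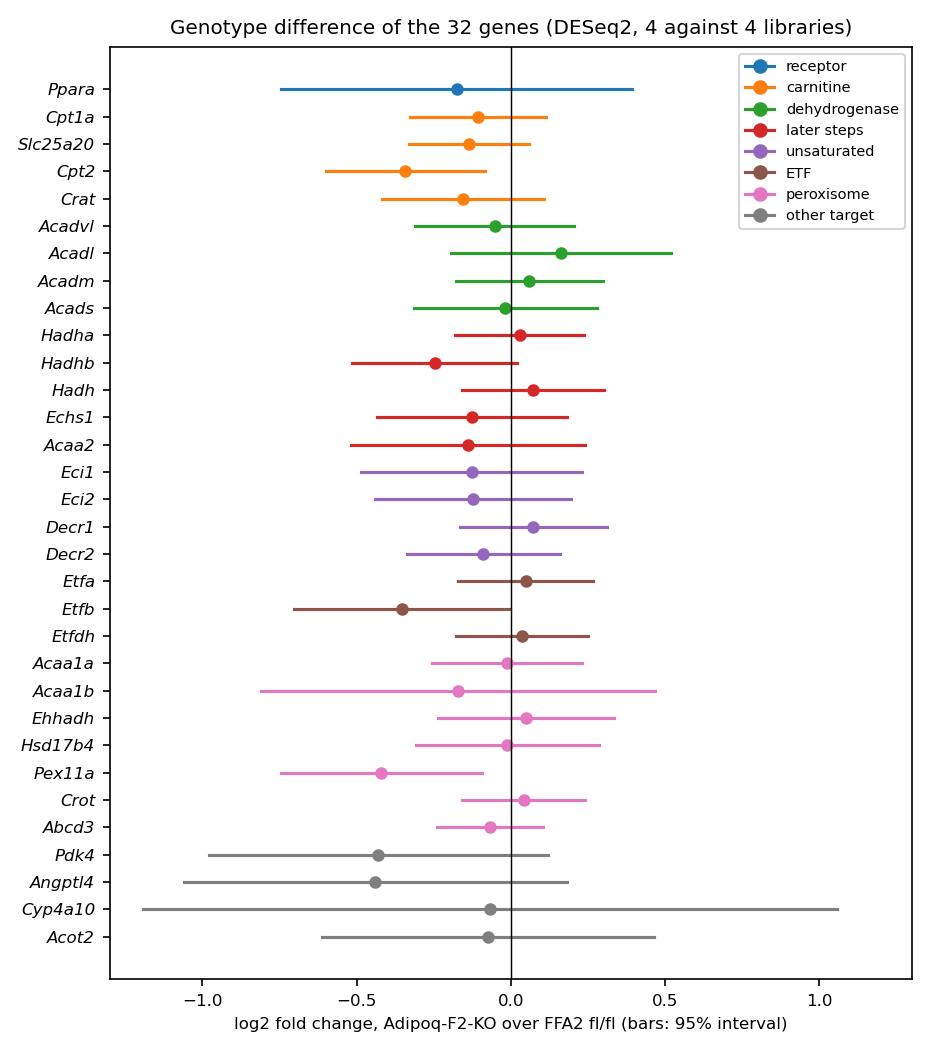
Log2 fold change of each of the 32 genes, Adipoq-F2-KO over FFA2 fl/fl, from DESeq2 on 4 libraries per genotype (x axis, log2 scale). Points are estimates, bars are 95% intervals and colours mark the role of the gene. The intervals of Cpt2, Etfb and Pex11a lie below 0, and that of Cyp4a10 is the widest, from −1.19 to 1.06.

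Ppara, which encodes PPAR alpha itself (ENSMUSG00000022383, chr15:85734983-85802819), had normalized counts of 1607, 791, 562.5 and 769 in floxed libraries 1 to 4 and 1017.5, 884, 799 and 603.5 in Adipoq-F2-KO libraries 1 to 4. Floxed 1 was the highest library and floxed 3 the lowest, and all 4 Adipoq-F2-KO libraries lay between them. The means were 932 ± 461.5 and 826 ± 173.5 (SD, n = 4 each), giving a log2 fold change of −0.18 (95% interval −0.75 to 0.39; DESeq2, unadjusted p = 0.545). Without floxed 1 the estimate was 0.22.

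The carnitine shuttle carries long-chain acyl groups across the inner mitochondrial membrane, and its 4 genes all had estimates below 0, with a median of −0.15. Cpt2, the inner-membrane carnitine palmitoyltransferase that returns the acyl group to coenzyme A (ENSMUSG00000028607, chr4:107903981-107923610), had the smallest p of the 32. Its normalized counts were 1691, 1550.1, 1533 and 2018 in floxed libraries and 1378, 1459.5, 1395.5 and 1122 in Adipoq-F2-KO libraries. Every Adipoq-F2-KO library was below every floxed library, and the closest values were 1459.5 and 1533. The means were 1698 ± 225 and 1339 ± 148.5 (SD, n = 4 each), a log2 fold change of −0.34 (SE 0.13, 95% interval −0.60 to −0.08; DESeq2, unadjusted p = 0.00953, adjusted p = 0.9998). In the 5 deeper libraries the log2 fold change was −0.31 (unadjusted p = 0.048). Over 14 alternatives it ran from −0.39 to −0.25, and the unadjusted p missed 0.05 in 1 of them, without floxed 4.

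Cpt1a, the outer-membrane carnitine palmitoyltransferase that commits fatty acids to oxidation (ENSMUSG00000024900, chr19:3322334-3385733), had normalized counts of 3391, 3133, 2911 and 3575 in floxed libraries and 3149, 2608, 3339.5 and 3004 in Adipoq-F2-KO libraries. The genotypes overlapped, with Adipoq-F2-KO 2 alone below all floxed libraries. Its log2 fold change was −0.11 with a 95% interval from −0.33 to 0.11. Slc25a20, the carnitine-acylcarnitine exchanger between both transferases (ENSMUSG00000032602, chr9:108662088-108684641), had 1269, 1081, 1106 and 1183 in floxed libraries and 1081.5, 962, 1073 and 1124 in Adipoq-F2-KO libraries. Adipoq-F2-KO 2 and 3 were below all floxed libraries and the other two were within their range. The log2 fold change of Slc25a20 was −0.14 (−0.33 to 0.06). Crat, a carnitine acetyltransferase for short acyl groups, had means of 2819 ± 393.5 and 2534 ± 285 (SD, n = 4 each) and a log2 fold change of −0.16 (−0.42 to 0.11), which was −0.29 in the 5 deeper libraries (unadjusted p = 0.0118).

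The 4 acyl-CoA dehydrogenases, which carry out the first dehydrogenation of each round on chains of decreasing length, showed no common direction, with 2 estimates below and 2 above 0 and a median of 0.020. Acadl, the long-chain enzyme (ENSMUSG00000026003, chr1:66830839-66863277), had the highest estimate of the 32. It had normalized counts of 2683, 2723, 1959 and 2196 in floxed libraries and 1889.8, 2608, 3151 and 3079.5 in Adipoq-F2-KO libraries. Adipoq-F2-KO 3 and 4 were above all floxed libraries and Adipoq-F2-KO 1 was below them, so the groups overlapped. The log2 fold change of Acadl was 0.16 (SE 0.18, 95% interval −0.19 to 0.52), and without the 3 shallow libraries, which included both high ones, it was −0.18.

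Acadm, the medium-chain enzyme (ENSMUSG00000062908, chr3:153922357-153944632), had counts of 1402, 1253, 1487 and 1222 in floxed libraries and 1381.5, 1215, 1618 and 1378 in Adipoq-F2-KO libraries. The groups overlapped, with the lowest and the highest value both in Adipoq-F2-KO libraries, and the log2 fold change was 0.059 (−0.18 to 0.30). Acadvl, the very-long-chain enzyme, had a log2 fold change of −0.053 (−0.31 to 0.20), and Acads, the short-chain enzyme, one of −0.018 (−0.31 to 0.28). Acadvl overlaps Dvl2 on the opposite strand over 42.9% of its exon bases, and 851 counts fell on Dvl2 and 7607 on Acadvl in all 8 libraries. The strand setting of the counting was not given in the sources used here.

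The later steps of the mitochondrial spiral are carried out by the trifunctional protein (Hadha and Hadhb) for long chains and by Echs1, Hadh and Acaa2 for shorter ones. The 5 estimates ran from −0.25 to 0.072 with a median of −0.13. Hadha, the alpha subunit with hydratase and dehydrogenase activity (ENSMUSG00000025745, chr5:30118304-30155162), had normalized counts of 5346, 4834, 4126 and 4777 in floxed libraries and 4801, 4872, 5338 and 4476 in Adipoq-F2-KO libraries. All Adipoq-F2-KO values lay inside the floxed range, and the log2 fold change was 0.029 (−0.18 to 0.24). Hadhb, the thiolase subunit of the same complex, had means of 381 ± 57.3 and 323 ± 11.03 (SD, n = 4 each) and a log2 fold change of −0.25 (−0.52 to 0.02; DESeq2, unadjusted p = 0.0704).

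Hadha and Hadhb start from a shared stretch of chromosome 5, with 272 bases between their RefSeq starts and opposite directions of transcription. Per kilobase of exon the level of Hadha was 10.4 times that of Hadhb at the median of the 8 libraries, with a range from 7.96 to 12.8. Of the distinct 75-base stretches in Hadhb transcripts, 16.7% also occur in another gene, nearly all of them in Gm13910, so reads of Hadhb may have been left out or assigned elsewhere. The log2 fold changes of the other three were 0.072 (−0.16 to 0.30) for Hadh, the short-chain hydroxyacyl-CoA dehydrogenase, −0.13 (−0.43 to 0.18) for Echs1, the short-chain enoyl-CoA hydratase, and −0.14 (−0.52 to 0.24) for Acaa2, a mitochondrial thiolase.

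Unsaturated fatty acids need isomerases (Eci1, Eci2) and dienoyl-CoA reductases (Decr1 in mitochondria, Decr2 in peroxisomes) to enter the spiral. The log2 fold changes were −0.13 for Eci1, −0.12 for Eci2, 0.072 for Decr1 and −0.089 for Decr2, with 95% intervals that all included 0 and reached from −0.49 to 0.31 at the extremes. Eci1 and Eci2 were both highest in floxed 1, at 371 and 505 against 214 to 282 and 322 to 418 in the other 7 libraries.

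Electrons from the acyl-CoA dehydrogenases pass to the electron transfer flavoprotein, a dimer of Etfa and Etfb, and from there through Etfdh to ubiquinone. Etfb (ENSMUSG00000004610, chr7:43444083-43457800) had normalized counts of 117.5, 115, 107 and 96.7 in floxed libraries and 86.8, 84.9, 96.1 and 75.2 in Adipoq-F2-KO libraries. The groups did not overlap, but floxed 4 and Adipoq-F2-KO 3 were 96.7 and 96.1. Its means were 109 ± 9.37 and 85.8 ± 8.57 (SD, n = 4 each), with a log2 fold change of −0.35 (SE 0.18, 95% interval −0.70 to −0.003; DESeq2, unadjusted p = 0.0484, adjusted p = 0.9998). In the 5 deeper libraries the estimate was −0.36 with an unadjusted p of 0.121.

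The partner subunit Etfa had a log2 fold change of 0.049 (−0.17 to 0.27), and Etfdh one of 0.036 (−0.18 to 0.25). Per kilobase of exon Etfa was 6.13 times Etfb at the median library (range 4.79 to 7.21). The count of Etfb is uncertain, because 53.0% of its exon bases are also annotated to Gm45233 on the same strand, which had 0 counts in all libraries, and 39.6% of its 75-base stretches occur in that gene too. How reads in such overlaps were counted was not given in the sources used here.

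The peroxisomal genes of the set had 5 estimates below 0 and 2 above, with a median of −0.014. Pex11a, a membrane protein that promotes the elongation and division of peroxisomes (ENSMUSG00000030545, chr7:79735957-79743131), was the clearest difference among them. Its normalized counts were 897, 938, 596 and 1025 in floxed libraries and 650.5, 665, 591 and 688 in Adipoq-F2-KO libraries. Floxed 1, 2 and 4 lay above all Adipoq-F2-KO libraries, and floxed 3 lay among them. The means were 864 ± 186.5 and 648.5 ± 41.6 (SD, n = 4 each), a log2 fold change of −0.42 (SE 0.17, 95% interval −0.74 to −0.09; DESeq2, unadjusted p = 0.0115, adjusted p = 0.9998).

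Pex11a was the only gene of the set that reached an adjusted p below 0.05 in any of the 14 alternatives. In the 5 deeper libraries its log2 fold change was −0.54 (DESeq2, adjusted p = 0.00873), and without floxed 3 alone it was −0.55 (adjusted p = 0.00028). The calls among all 15986 tested genes went from 6 to 78 (0.488%) and 103 in the same fits. Over all alternatives the log2 fold change ran from −0.55 to −0.33 and the adjusted p from 0.00028 to 1.0. Floxed 3 is the library with the highest smooth muscle sum and the lowest total count, and with the smooth muscle score as a term the log2 fold change of Pex11a was −0.37. The part of depth in its low Pex11a value was not tested.

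Ehhadh, the peroxisomal bifunctional enzyme (ENSMUSG00000022853, chr16:21761287-21787807), had counts of 2178.5, 2199.5, 1562 and 1881 in floxed libraries and 1930.1, 2034, 2388.5 and 1756 in Adipoq-F2-KO libraries. The groups overlapped, with the lowest value in floxed 3 and the highest in Adipoq-F2-KO 3. The estimate for Ehhadh was 0.049 on the log2 scale (−0.24 to 0.33). Acaa1b, a peroxisomal thiolase (ENSMUSG00000010651, chr9:119148023-119157093), had 486.5, 300.4, 146 and 381.5 in floxed libraries and 217, 277, 434.5 and 250 in Adipoq-F2-KO libraries. Its highest and lowest values were both floxed, 3.32 times apart, and the log2 fold change was −0.17 (−0.81 to 0.47).

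In the 5 deeper libraries Acaa1b had a log2 fold change of −0.66 (unadjusted p = 0.00909, adjusted p = 0.342). Its paralog Acaa1a had one of −0.014 (−0.26 to 0.23) in all 8 libraries. Of the 75-base stretches of Acaa1b, 24.4% occur in Acaa1a, so their counts are not fully separate. The log2 fold changes of the remaining peroxisomal genes were −0.012 (−0.31 to 0.28) for Hsd17b4, the second bifunctional enzyme, 0.041 (−0.16 to 0.24) for Crot, which makes carnitine esters for export, and −0.068 (−0.24 to 0.10) for Abcd3, an importer of acyl-CoA.

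The 4 further PPAR alpha targets all had estimates below 0, with a median of −0.25 and wide intervals. Pdk4, a kinase that turns off pyruvate dehydrogenase (ENSMUSG00000019577, chr6:5483351-5496309), had normalized counts of 1494.5, 1505, 732 and 864 in floxed libraries and 1299, 710.5, 689 and 714 in Adipoq-F2-KO libraries. Adipoq-F2-KO 2, 3 and 4 were below all floxed libraries, and Adipoq-F2-KO 1 was between the high and the low floxed libraries. The log2 fold change of Pdk4 was −0.43 (SE 0.28, 95% interval −0.98 to 0.12; DESeq2, unadjusted p = 0.126), and it was −0.36 in the 5 deeper libraries.

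Angptl4, a secreted inhibitor of lipoprotein lipase (ENSMUSG00000002289, chr17:33773750-33781830), had 806, 987, 585.5 and 994 in floxed libraries and 975, 785.5, 338 and 382 in Adipoq-F2-KO libraries. The 2 values below all floxed libraries were those of the shallow Adipoq-F2-KO 3 and 4. Its log2 fold change was −0.44 (SE 0.32, −1.06 to 0.18; DESeq2, unadjusted p = 0.166), the lowest estimate of the 32, and in the 5 deeper libraries it was −0.083. Leaving out 1 library moved it between −0.74, without Adipoq-F2-KO 1, and −0.24, without Adipoq-F2-KO 3.

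Cyp4a10, a fatty acid omega-hydroxylase (ENSMUSG00000066072, chr4:115518264-115533649), had 440.4, 337, 73.2 and 227.5 in floxed libraries and 177, 169, 414 and 274.5 in Adipoq-F2-KO libraries. It varied most of the 32, with its highest library 6.02 times its lowest, and both were floxed. The log2 fold change was −0.067 (−1.19 to 1.06) over 8 libraries and −0.96 in the 5 deeper ones (unadjusted p = 0.00095, adjusted p = 0.0994). Acot2, a mitochondrial acyl-CoA thioesterase (ENSMUSG00000021226, chr12:83987861-83993873), had 71.5, 58.5, 35.55 and 81.3 in floxed libraries and 52.9, 61.4, 74.1 and 54.5 in Adipoq-F2-KO libraries. All Adipoq-F2-KO values of Acot2 were inside the floxed range, and its log2 fold change was −0.073 (−0.61 to 0.47). Of its 75-base stretches 20.4% occur in Acot1, and of those of Cyp4a10 14.3% occur in Cyp4a32.

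**Figure D2:**
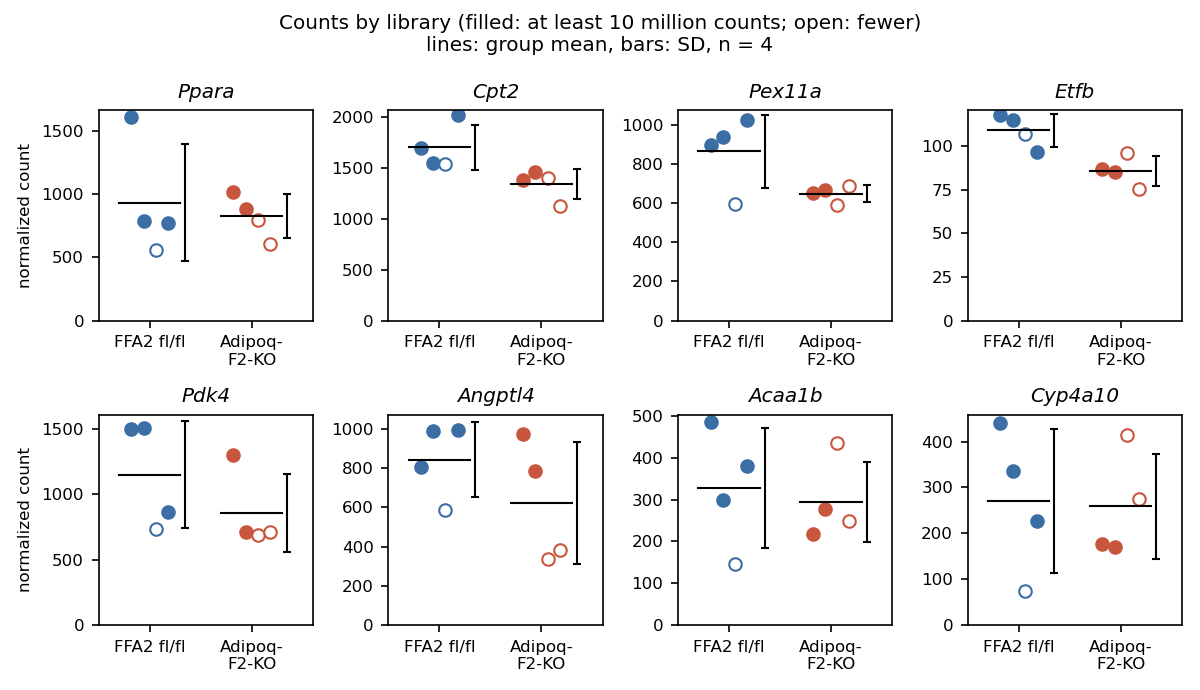
Normalized counts of 8 genes by library, 4 FFA2 fl/fl (blue) and 4 Adipoq-F2-KO (red); filled circles are libraries with at least 10000000 counts, open circles those with fewer, lines are group means and bars SD (n = 4). Cpt2 and Etfb show no overlap between genotypes, Pex11a overlaps through floxed 3 at 596, and the low Angptl4 values of 338 and 382 are both open circles.

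Per kilobase of annotated exon the levels of the set covered a wide range. Hadh was the most abundant, with a mean of 1681 normalized counts per kilobase over 8 libraries (range 1508 to 1947), followed by Acadl at 1265 (943 to 1572) and the peroxisomal Hsd17b4 at 1251 (1004 to 1499). The ranges of Acadl and Hsd17b4 overlapped almost fully, so their order was within the spread. Acot2, at 27.9 (16.2 to 37.0), was the least abundant, and Hadhb and Echs1 stood next to it at 53.4 and 56.2. Peroxisomal genes stood among the mitochondrial ones, with Abcd3 at 889 and Ehhadh at 668 beside Cpt2 at 635 and Hadha at 552. These levels depend on the annotated exon length, which counts every exon of every transcript.

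**Figure D3:**
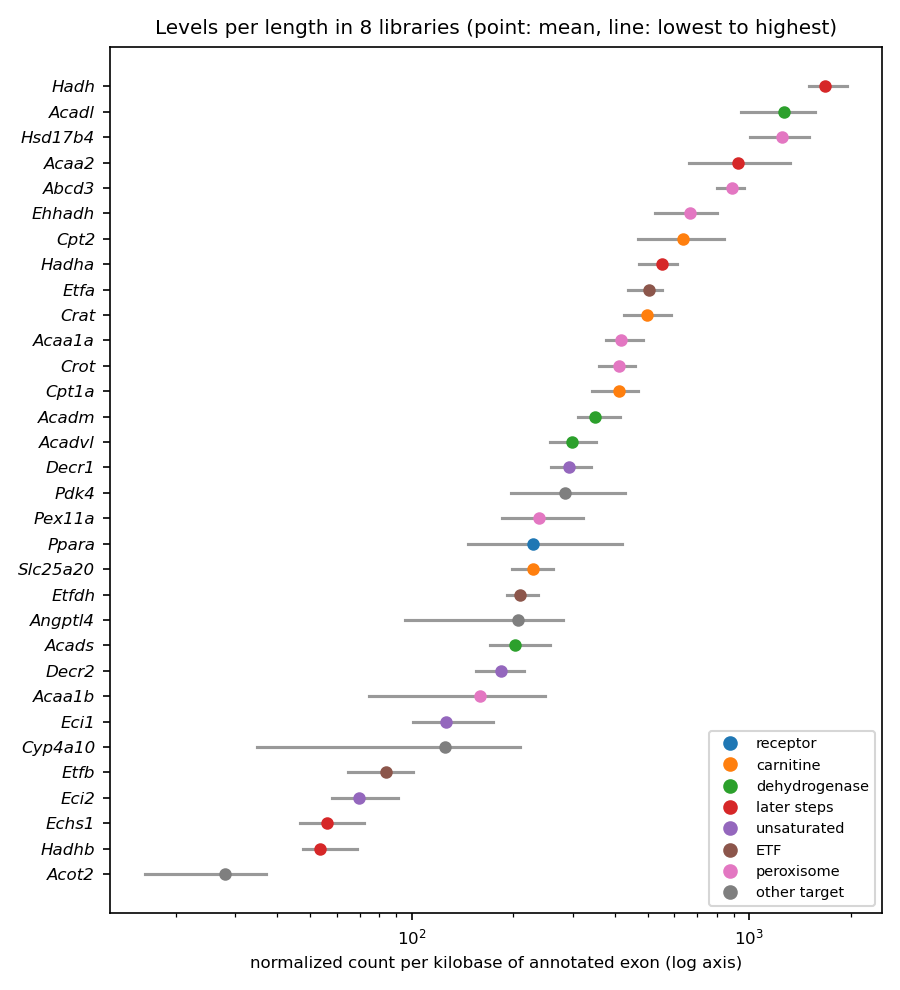
Normalized count per kilobase of annotated exon for the 32 genes, ordered by mean (x axis, log scale). Points are means over 8 libraries and lines run from the lowest to the highest library; Hadh is highest at 1681 and Acot2 lowest at 27.9, and the longest line is that of Cyp4a10, from 34.7 to 209.

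Spread between libraries also differed among the genes. Abcd3 varied least, with a coefficient of variation of 6.34% pooled within genotypes, and Slc25a20, Crot, Etfa, Etfdh, Hadha, Etfb and Cpt1a stayed below 10%. Cyp4a10 (51.7%), Angptl4 (38.9%), Acaa1b (38.6%), Ppara (38.0%) and Pdk4 (35.2%) varied most. The genes with the largest spread were thus the receptor, 3 of its 4 further targets and a peroxisomal thiolase, and the standard errors of their log2 fold changes, from 0.28 to 0.57, were also the largest.

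The extremes of the set fell mostly in the same libraries. Floxed 1 was the highest library for 19 of the 32 genes (59.4%), as it was for 12.3% of all tested genes, and floxed 3 the lowest for 16 (50%), as it was for 18.5% of all tested genes. The median deviation of the 32 genes from their means over the libraries was 0.24 on the log2 scale in floxed 1 and −0.21 in floxed 3, and lay between −0.11 and 0.093 in the other 6. Both extremes were floxed libraries, so the summed level of the set ranged from 47683 to 62721 in floxed libraries and from 50642 to 58254 in Adipoq-F2-KO libraries. Beside this, floxed 1 had the lowest smooth muscle sum of the 8 libraries and floxed 3 the highest. Floxed 4 and Adipoq-F2-KO 1 had sums near that of floxed 1, 4283 and 4149 against 3768, but median deviations of −0.002 and −0.018. The villus enterocyte sum was lowest in floxed 1, at 933728, and highest in floxed 3, at 1036616. Floxed 1 also had the lowest leukocyte sum, 4069 against 11340 to 18789 in the other 7, with Cd74 the largest marker in it. The part of leukocyte content was not tested, and that of muscle content was not tested beyond a fit with the smooth muscle score as a term, in which the median was −0.035 and 18 estimates were below 0.

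**Figure D4:**
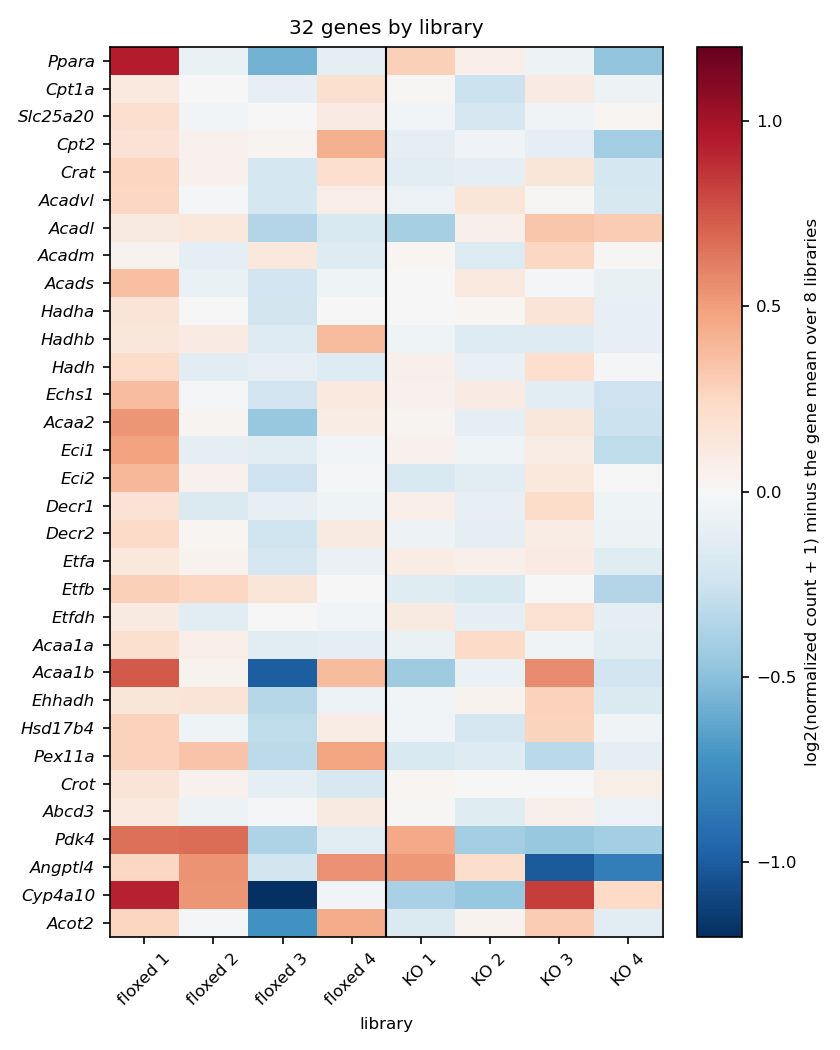
Log2 of the normalized count plus 1, minus the mean of the gene over 8 libraries (colour), for the 32 genes (rows) in 4 floxed and 4 Adipoq-F2-KO (KO) libraries (columns). Floxed 1 is red in most rows, with a median of 0.24, and floxed 3 blue, with a median of −0.21. The medians of all other libraries, floxed and Adipoq-F2-KO, lie between −0.11 and 0.093.

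In the 5 deeper libraries, 28 of the 32 estimates were below 0, as were 8073 of all 15986 tested genes. The median log2 fold change was −0.17 (all tested genes −0.003). An adjusted p below 0.05 was reached by Pex11a alone, 1 of 32 (3.12%), where 78 of all tested genes (0.488%) reached it. At an unadjusted p below 0.05, 5 of the 32 (15.6%) were lower, namely Cpt2, Crat, Acaa1b, Pex11a and Cyp4a10, against 2.85% of all tested genes, and none was higher. The comparison rested on 3 floxed and 2 Adipoq-F2-KO libraries, and 1 of the 3 floxed was floxed 1, the library in which the set was highest.

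**Figure D5:**
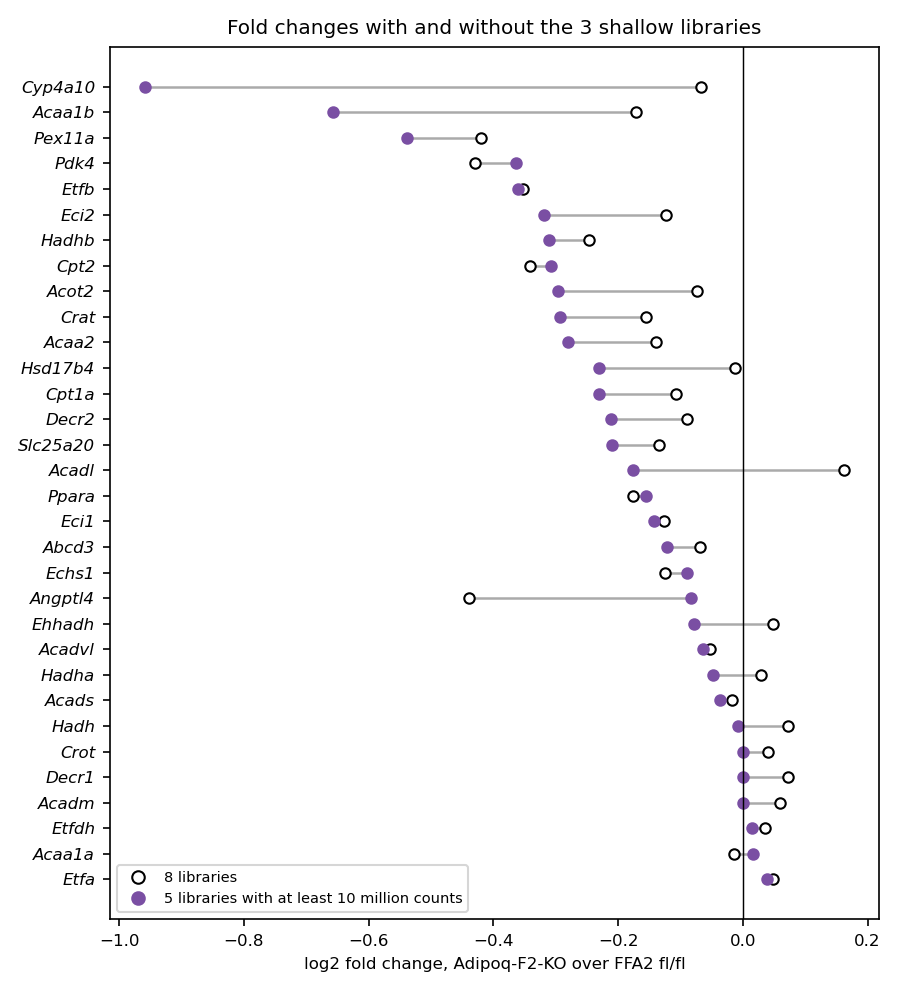
Log2 fold change of each gene, Adipoq-F2-KO over FFA2 fl/fl, in all 8 libraries (open circles) and in the 5 libraries with at least 10000000 counts (filled circles); lines join the estimates of a gene. Cyp4a10 moves from −0.067 to −0.96, Acaa1b from −0.17 to −0.66 and Angptl4 from −0.44 to −0.083, while Cpt2, Etfb and Pex11a stay below −0.30 in both.

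A list of 95 other genes of the pathway was examined the same way, of which 81 were tested. None had an adjusted p below 0.05 (DESeq2), and at an unadjusted p below 0.05 there were 2 higher and 3 lower genes, beside 3.03% of all tested genes. In all, 56 estimates (69.1%) were below 0 and 25 above, with a median of −0.073, where 51.5% of all tested genes were below 0. Ppargc1a, the coactivator PGC-1 alpha that works with PPAR alpha and drives mitochondrial gene expression (ENSMUSG00000029167), had the smallest p of the list. Its normalized counts were 2158.5, 2049, 2191.5 and 2196 in floxed libraries and 2807, 2715, 2384.5 and 2685 in Adipoq-F2-KO libraries, with every Adipoq-F2-KO library above every floxed library. Its log2 fold change was 0.30 (SE 0.08, 95% interval 0.14 to 0.47; DESeq2, unadjusted p = 0.00025, adjusted p = 0.232), and in the 5 deeper libraries 0.37 (adjusted p = 0.0457). Over the 14 alternatives the log2 fold change of Ppargc1a ran from 0.28 to 0.37 and the adjusted p from 0.0386 to 1.0.

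Among the 5 deeper libraries the list leaned to lower levels, with 11 genes lower and Ppargc1a alone higher at an unadjusted p below 0.05, where 2.85% of all tested genes were lower. An adjusted p below 0.05 was reached there by Ppargc1a and by 3 lower genes, G0s2, Acot4 and Acot1, which fell outside the naming rule and were chosen after their values were seen, beside 0.488% of all tested genes. G0s2, an inhibitor of adipose triglyceride lipase, had normalized counts of 117, 155 and 323.5 in the deeper floxed libraries 1, 2 and 4 and 7.89 and 15.5 in Adipoq-F2-KO 1 and 2, a log2 fold change of −4.07 (SE 0.52; DESeq2, adjusted p = 3.3e-11). The 3 shallow libraries did not share that order, with 50.2 in floxed 3 and 84.1 and 145 in Adipoq-F2-KO 3 and 4, and over all 8 libraries the log2 fold change of G0s2 was −1.37 (unadjusted p = 0.156). Acot4 and Acot1, acyl-CoA thioesterases of peroxisomes and cytosol, had log2 fold changes of −0.76 (adjusted p = 0.00873) and −1.50 (adjusted p = 0.0263) in the deeper libraries and of −0.38 (unadjusted p = 0.0918) and −0.74 (unadjusted p = 0.0737) in all 8.

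Sirt1, a deacetylase that acts on PGC-1 alpha, had normalized counts of 282 to 403.5 in floxed libraries and 382 to 515 in Adipoq-F2-KO libraries and a log2 fold change of 0.31 (0.003 to 0.62; unadjusted p = 0.048). On the lower side were Slc22a5, the plasma-membrane carnitine transporter, at −0.29 (unadjusted p = 0.0162), and Acox2, a peroxisomal oxidase for branched chains and bile acid intermediates, at −0.54 (unadjusted p = 0.0242; DESeq2, adjusted p = 0.9998 for each). Slc22a5 did not overlap between genotypes, with 767 to 932 against 601 to 766, whereas Acox2 did, with 449.6 to 939 against 420.4 to 604.5.

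Fabp1, a fatty acid binding protein and PPAR alpha target, had a log2 fold change of 0.13 (−0.21 to 0.47). Cyp4a14, a strongly PPAR alpha-responsive hydroxylase in liver, had 1 count over all 8 libraries and was not tested.

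By role, the medians of the other pathway genes were −0.13 for 15 further genes of mitochondrial oxidation, −0.077 for 20 of peroxisomal oxidation, −0.11 for 15 of peroxisome assembly, −0.076 for 4 of omega oxidation, −0.14 for 10 further PPAR alpha targets, 0.037 for 5 of ketone body metabolism and 0.028 for 12 receptors and coregulators. No test compared these lists with those of the steps that follow beta-oxidation. The 74 tested nuclear genes of oxidative phosphorylation had a median of −0.018 and the 18 genes of the tricarboxylic acid cycle one of −0.014. None of either list had an unadjusted p below 0.05. Among the 32 genes, medians as near to 0 were those of the peroxisomal genes (−0.014) and the acyl-CoA dehydrogenases (0.020). The other roles lay between −0.25 and 0.036. The 7 tested of 13 mitochondrially encoded genes had a median of 0.031, which was −0.38 in the 5 deeper libraries, and the other 6 had at most 1 count over all libraries.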

How the data were processed

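RNA sequencing of jejunal mucosa was analysed from 8 mouse libraries, 4 FFA2 fl/fl and 4 Adipoq-F2-KO, grouped by the genotype in their titles. Polyadenylated RNA was made into stranded libraries and read from a single end over 75 bp. The authors trimmed reads with Trimmomatic, aligned them with STAR and counted them per gene with featureCounts. The deposited values are raw read counts per gene, neither normalized nor pooled. The processing notes name GRCm38/mm10, and the annotation release, tool versions and strand setting were not given in the sources used here.

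Genes that reached 10 counts in 4 or more libraries entered DESeq2 1.42.0 in R 4.3.3, with genotype as the only term, two-sided Wald tests and Benjamini-Hochberg adjustment over all tested genes. Normalized counts are counts divided by the library's size factor, and each fold change is the Adipoq-F2-KO level over the floxed level. Intervals cover the spread between libraries and counting error. Positions and exon lengths came from GENCODE M21 (GRCm38), and promoter windows from RefSeq (GRCm38.p6). The procedure was tested on simulated counts.

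The members, the gene lists and the tests were chosen with earlier results of these data known. All 32 genes are named. Values in every library are given for 14 genes fixed by name and for those with an unadjusted p below 0.05 or no overlap between genotypes. Among the other pathway genes, up to 8 with an unadjusted p below 0.05 are named, with genes fixed by name, of which Cyp4a14 and Fabp1 are given. Results for some single genes of that list are not reported here.

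The 14 alternatives were TMM factors in DESeq2, edgeR 4.0.16, no count filter, the replicate number as a block, a smooth muscle score as a term, the 5 libraries with at least 10000000 counts, and leaving out each library in turn.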

Additional observations from a re-analysis of the deposited data

Results flagged for a closer look

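In 4 of 64 groups of 4 libraries (32 genes in 2 genotypes), a single library lay far from the other 3 by Dixon's criterion at 95%, where about 3.2 would be expected at 1 in 20. Hadh had a normalized count of 9692.3 and Eci1 one of 371.4 in floxed 1, each above the other floxed libraries. Etfa had 834.7 in Adipoq-F2-KO 4, below the others of its genotype. Pdk4 had 1299.4 in Adipoq-F2-KO 1, above the others of its genotype, and without that library its log2 fold change was −0.71.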

How the results depend on the processing

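The replicate numbers are those of the sample titles, which do not say that same-numbered libraries were paired. Matching by these numbers therefore cannot show whether animals of the 2 genotypes were paired. Correlations of the deviations of same-numbered libraries from their group means were 0.54, 0.29, 0.011 and −0.42 for numbers 1 to 4, and numbers 1 and 2 alone correlated best with their own partner. With the replicate number as a block, 11 genes were called at an adjusted p below 0.05, none of the 32 among them, 4 of the 32 had an unadjusted p below 0.05 (Cpt2, Pex11a, Pdk4, Angptl4; 434 of all tested genes, 1.1% lower), and the log2 fold change of Cyp4a10 was 0.024.

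The count of genes called among all tested genes was 6, and it was 2 with edgeR, 3 without a count filter, 78 in the 5 deeper libraries and 2 to 103 when 1 library was left out, namely 103 without floxed 3, 23 without floxed 2, 3 without floxed 4 or Adipoq-F2-KO 4 and 2 without floxed 1. Of the 32 genes, 5 had an unadjusted p below 0.05 in the 5 deeper libraries and 1 to 5 when 1 library was left out, and the median log2 fold change then ran from −0.158 to 0.045. Of 518 values for single genes under the 14 alternatives, 465 kept direction and side of the threshold, 4 newly passed it (Pex11a and Ppargc1a) and 49 changed sign. The 12 of the 32 that never changed sign were all below 0.

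In the 5 deeper libraries the log2 fold changes that changed sign were −0.18 for Acadl, −0.048 for Hadha, −0.008 for Hadh, −0.000 for Decr1, 0.017 for Acaa1a, −0.078 for Ehhadh, −0.000 for Crot and −0.21 for Fabp1. With the smooth muscle score they were 0.019 for Acads, 0.025 for Acaa1b, 0.031 for Hsd17b4, 0.16 for Cyp4a10 and 0.030 for Acot2. Leaving out 1 library gave ranges that crossed 0 for Ppara (−0.35 to 0.22), Acadvl (−0.12 to 0.027), Acadm (−0.016 to 0.12), Acads (−0.085 to 0.12), Hadha (−0.034 to 0.089), Acaa2 (−0.28 to 0.043), Eci1 (−0.19 to 0.048), Eci2 (−0.21 to 0.006), Etfa (−0.001 to 0.10), Etfdh (−0.020 to 0.080), Acaa1a (−0.10 to 0.053), Acaa1b (−0.42 to 0.077), Ehhadh (−0.043 to 0.11), Hsd17b4 (−0.11 to 0.086), Crot (−0.013 to 0.11), Cyp4a10 (−0.40 to 0.27), Acot2 (−0.22 to 0.078) and Fabp1 (−0.033 to 0.24). The cause was not tested. Precision was limited by 4 libraries per genotype, of which 3 of the 8 were shallow.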
